A study of Mus musculus with 8 samples.

Results

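The data described here are the open chromatin regions assigned to 34 genes of T cell receptor signalling in mouse regulatory T cells (Tregs). The count table of the series names a gene for each region, and every region carrying the symbol of 1 of the 34 genes was taken, once per position. This gave 246 of 46512 regions, of which 243 passed a filter on low counts, against 45709 regions kept in all. The 3 regions left out belonged to Cd6, Txk and Ptpn22, 1 each. The assay was ATAC-seq. Its transposase inserts sequencing adapters into open DNA, so the read count over a region rises with its openness. There were 8 libraries from C57BL/6 mice carrying a Foxp3RFP reporter, 2 in each of 4 groups: RFP-positive Tregs from male visceral adipose tissue (VAT), RFP-positive Tregs from female VAT, RFP-positive Tregs from male spleen, and RFP-negative CD4 T cells from male VAT. Every library came from the sorted cells of 3 pooled mice. The age of the mice is not given in the sources used here. The fluorescent protein reports the Foxp3 locus in all 4 groups, so the CD4 cells carry the reporter allele without its signal.

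A T cell receptor binds a peptide held by a major histocompatibility complex protein, and the CD3 chains beside it carry the tyrosines that start the signal. The kinase Lck, brought in by the coreceptor CD4, phosphorylates those tyrosines, Zap70 docks there, and the scaffold built on Lat and Lcp2 (SLP-76) gathers phospholipase C gamma, Vav proteins and exchange factors for Ras. Diacylglycerol then activates Rasgrp1 and protein kinase C theta, whose route through Bcl10 and Malt1 ends at NF-kB, while phosphatases, diacylglycerol kinases and ubiquitin ligases such as Cblb hold the signal down. Tregs need their receptor to keep their effector state, and the Tregs of mouse VAT are known for a receptor repertoire of their own.

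The 34 genes had a median of 6 regions each, against 2 over all 19229 genes with a region kept. The number ran from 1 at Dgka to 22 at Cblb. Of the 243 regions, 30 covered a RefSeq transcription start, 133 lay inside the gene they were assigned to and 80 lay outside it, up to 384.3 kb away. For 64 of them the table named another gene as well, and all 3 regions of Cd3d were also those of its neighbour Cd3g. Widths were either under 1000 bp (143 regions, median 145 bp) or larger (100 regions, median 3687 bp). Short regions made up 58.8% of the regions of these genes and 35.8% of all regions.

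Counts used ran between 5722254 and 15798875 per library, and values are CPM, counts scaled to the library total and by trimmed-mean-of-M factors. Regions under 1000 bp took 5.55% and 4.22% of the counts of male VAT Treg replicates 1 and 2, against 4.24 and 4.37% in female VAT Tregs, 4.11 and 4.21% in spleen Tregs, and 3.60 and 4.01% in VAT CD4 cells. Foxp3, the factor that defines Tregs, had 6 regions whose summed level was 85.0 and 53.5 CPM in male VAT Tregs, 111.6 and 110.1 CPM in female VAT Tregs, 55.2 and 65.6 CPM in spleen Tregs, and 38.3 and 40.8 CPM in VAT CD4 cells. Over 5 Treg markers, 18 of 52 regions were higher and 1 lower in male VAT Tregs than in VAT CD4 cells, where 5.18% of all regions were higher and 2.51% lower. Summed over these 52 regions, the level was 524.1 and 376.6 CPM in male VAT Tregs and 317.8 and 378.9 CPM in VAT CD4 cells. It was 473.7 and 498.3 CPM in female VAT Tregs and 408.8 and 421.2 CPM in spleen Tregs. Male VAT Treg replicate 2 lay under VAT CD4 replicate 2 in this sum and at Il2ra, Ikzf2 and Ikzf4, but not at Foxp3 and Ctla4. Over 5 T cell markers (Cd4, Cd3e, Cd3g, Cd28 and Bcl11b), 1 of 30 regions was higher and 8 were lower in the same comparison. Cd4 had 2 of the lower regions, Cd3g 1 and Cd3e 0, and the others were at Cd28 or Bcl11b. Summed over the 30 regions, the level was 305.2 and 229.3 CPM in male VAT Tregs and 297.4 and 375.9 CPM in VAT CD4 cells. It was 318.3 and 324.1 CPM in female VAT Tregs and 322.6 and 324.7 CPM in spleen Tregs. Of the markers of other cells, 9 (Cd8a, Ncr1, Klrd1, Ms4a1, Csf1r, Lyz2, Adgre1, Lep and Pdgfrb) had no region tested. The markers with a region were summed. For CD8 and NK cells, with 3 of 6 genes measured, the sum was 101 to 113 CPM in male VAT Tregs, 107 to 113 CPM in female VAT Tregs, 104.7 CPM in both spleen Treg libraries, and 115 to 117 CPM in VAT CD4 cells. For B cells, with 5 of 6 genes, it was 75.4 to 109.5 CPM in male VAT Tregs, 107 to 111 CPM in female VAT Tregs, 112 to 113 CPM in spleen Tregs, and 105 to 108 CPM in VAT CD4 cells. For myeloid cells, with 4 of 7 genes, it was 99.6 to 141 CPM in male VAT Tregs, 149 CPM in both female VAT Treg libraries, 145 to 155 CPM in spleen Tregs, and 116 to 145 CPM in VAT CD4 cells. For adipocytes, with 4 of 5 genes, it was 76.6 to 81.7 CPM in male VAT Tregs, 99.0 to 101 CPM in female VAT Tregs, 97.3 to 110.1 CPM in spleen Tregs, and 98.8 to 99.0 CPM in VAT CD4 cells. For stromal and endothelial cells, with 5 of 6 genes, it was 195 to 205 CPM in male VAT Tregs, 200.1 to 201 CPM in female VAT Tregs, 197 to 219 CPM in spleen Tregs, and 197 to 224 CPM in VAT CD4 cells. The part of such cells in the results was not tested. In sorted but bulk cells, fewer cells with an open region and a region less open in every cell cannot be told apart.

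Of the 30 regions at a RefSeq start, 3 were called in any comparison, and they covered starts of Lck, of the Cd3d and Cd3g pair, and of Dgkz. In male VAT against spleen Tregs, 2.75% of all 9565 regions at a RefSeq start were lower and 1.41% higher. Against VAT CD4 cells, 1.07% were lower and 1.37% higher in male VAT Tregs. All 3 start regions of the signalling genes were lower in male VAT than in spleen Tregs, and 2 were lower than in VAT CD4 cells. Their promoter sequences are shown because they are the starts whose accessibility differed, and the distal start of Lck because it did not pass the test while the proximal start did. Each runs over 250 bases before and 50 bases after a RefSeq start (GRCm38.p6), written along the gene. Capitals mark every match on either strand to an NF-kB motif (GGG and CC around 5 bases of any kind), NFAT GGAAA, TCF CTTTGA, RUNX TGTGGT, AP-1 TGANTCA or ETS CCGGAAG. Matches to different motifs can overlap.
Lck proximal start (chr4:129558323-129558622, minus strand): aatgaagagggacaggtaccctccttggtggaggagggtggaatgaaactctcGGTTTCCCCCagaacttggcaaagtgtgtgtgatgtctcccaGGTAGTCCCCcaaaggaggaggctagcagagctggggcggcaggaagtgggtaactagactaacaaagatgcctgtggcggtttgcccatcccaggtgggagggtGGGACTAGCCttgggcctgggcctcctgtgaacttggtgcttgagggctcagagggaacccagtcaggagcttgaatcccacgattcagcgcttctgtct
Lck distal start (chr4:129573592-129573891, minus strand): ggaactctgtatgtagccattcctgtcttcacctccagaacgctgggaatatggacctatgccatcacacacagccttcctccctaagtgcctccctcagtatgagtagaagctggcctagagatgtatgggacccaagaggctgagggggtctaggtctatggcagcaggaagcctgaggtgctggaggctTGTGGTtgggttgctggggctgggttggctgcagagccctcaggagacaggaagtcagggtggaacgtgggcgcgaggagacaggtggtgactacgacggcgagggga
Cd3d start (chr9:44981536-44981835, plus strand): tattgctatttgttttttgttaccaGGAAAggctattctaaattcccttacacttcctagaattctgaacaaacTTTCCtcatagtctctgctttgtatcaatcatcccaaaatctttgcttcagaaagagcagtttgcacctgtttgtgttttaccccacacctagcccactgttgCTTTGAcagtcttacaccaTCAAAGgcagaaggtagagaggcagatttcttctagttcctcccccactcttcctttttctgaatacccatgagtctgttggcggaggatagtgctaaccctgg
Cd3g start (chr9:44980382-44980681, minus strand): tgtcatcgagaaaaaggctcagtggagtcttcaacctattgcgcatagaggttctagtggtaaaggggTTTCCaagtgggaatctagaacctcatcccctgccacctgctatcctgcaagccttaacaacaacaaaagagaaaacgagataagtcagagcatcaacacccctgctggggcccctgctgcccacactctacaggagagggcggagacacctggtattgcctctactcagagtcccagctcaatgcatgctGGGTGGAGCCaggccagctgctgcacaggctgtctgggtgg
Dgkz start (chr2:91963514-91963813, minus strand): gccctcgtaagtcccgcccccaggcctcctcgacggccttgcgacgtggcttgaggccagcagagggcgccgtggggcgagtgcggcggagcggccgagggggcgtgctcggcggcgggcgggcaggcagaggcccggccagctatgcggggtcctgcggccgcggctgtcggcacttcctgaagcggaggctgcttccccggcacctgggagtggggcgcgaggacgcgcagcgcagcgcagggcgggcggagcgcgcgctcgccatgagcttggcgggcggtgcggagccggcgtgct
The Lck proximal window held 3 NF-kB matches, 1 of which overlapped an NFAT match, and its distal window held 1 RUNX match. The Cd3d window held 2 NFAT and 2 TCF matches, and the Cd3g window 1 NFAT and 1 NF-kB match. The Dgkz window had none of these letters. A RefSeq promoter entry was matched for 30 of the 34 genes, with 44 windows in all. Cd4, Cd6, Skap1 and Malt1 were not matched, so their starts are not among the 30 start regions. An NFAT match stood in 68.2% of those windows and 61.3% of all 32851 windows, an NF-kB match in 47.7% and 50.8%, a TCF match in 18.2% and 16%, a RUNX match in 13.6% and 16.8%, and an AP-1 match or an ETS match in 2.27% each, against 7.81% and 8.86%. These matches are letters in a window and say nothing of binding.

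Most open regions of the signalling genes did not pass the test in any comparison. Male VAT Tregs had 4 regions higher and 1 lower than female VAT Tregs, which is 2.06% of the 243 regions, where 3.26% of all regions were called (2.04% higher, 1.21% lower). Compared with spleen Tregs, male VAT Tregs had 15 regions higher and 14 lower, or 11.9%, where 6.73% of all regions were called (4.64% higher, 2.09% lower). Female VAT Tregs had 6 regions higher than spleen Tregs and 0 lower, or 2.47%, where 1.38% of all regions were called (1.18% higher, 0.197% lower). At an unadjusted p under 0.05 edgeR gave 17 higher and 21 lower of the 243 regions in that comparison. Over all 45709 regions it gave 2475 higher and 1746 lower. After adjustment the DESeq2 Wald test and limma-voom also called 0 lower at the signalling genes. An edgeR fit on the compared groups alone called 2 lower, and separate scaling of short and larger regions called 1. Against VAT CD4 cells, male VAT Tregs had 8 regions higher and 19 lower, or 11.1%, where 7.69% of all regions were called (5.18% higher, 2.51% lower). A region was called when edgeR's quasi-likelihood test gave a Benjamini-Hochberg adjusted p under 0.05 over all 45709 regions, and every adjusted p printed here without another tool's name is from that test. The ± after a log2 fold change is its approximate standard error, and n is 2 libraries per group throughout. Because nothing in the labels says how the pools of a group were separated, the p-values measure the spread between these libraries. The male VAT Treg libraries enter 3 of the comparisons and the spleen Treg libraries 2. The design text of the series speaks of both sexes in spleen and the titles of the spleen libraries give no sex, but both are labelled male. The summed level of the regions of the Y-linked genes Uty, Ddx3y and Eif2s3y was 41.2 and 46.8 CPM in male VAT Tregs, 0.698 and 0.117 CPM in female VAT Tregs, 40.01 and 48.8 CPM in spleen Tregs, and 38.5 and 48.8 CPM in VAT CD4 cells. Female VAT Tregs were thus set against male spleen Tregs, and sex and tissue cannot be told apart there.

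The width of the regions moved with these shares. Among regions of 1000 bp or more, 15% of those at the signalling genes were called between male VAT and spleen Tregs (4 higher, 11 lower of 100), against 4.21% of all such regions (1.54% higher, 2.66% lower). Among shorter regions the share was 9.79% (11 higher, 3 lower of 143), against 11.3% of all (10.2% higher, 1.07% lower). Between male VAT Tregs and VAT CD4 cells the larger regions gave 11% (3 higher, 8 lower), against 4.17% of all (2.35% higher, 1.82% lower). There the shorter ones gave 11.2% (5 higher, 11 lower), against 14.0% of all (10.3% higher, 3.73% lower). The median log2 fold change over the 243 regions was -0.03 between male and female VAT Tregs, -0.06 between male VAT and spleen Tregs, -0.07 between female VAT and spleen Tregs, and -0.02 between male VAT Tregs and VAT CD4 cells. Over all regions these medians were 0.01, -0.01, -0.0029 and -0.02. Scaled on regions under 1000 bp alone, the counts at the signalling genes were 1 higher and 2 lower in male against female VAT Tregs, 9 higher and 18 lower in male VAT against spleen Tregs, and 1 higher and 31 lower in male VAT Tregs against VAT CD4 cells. That scaling moved the median log2 fold change of all regions by -0.10, -0.17 and -0.23 in these comparisons, and library size alone moved the last by 0.13. Scaled by library size alone, the counts were 2 higher and 1 lower, 10 higher and 12 lower, and 9 higher and 13 lower for the same 3 comparisons. With short and larger regions scaled separately they were 2 higher and 2 lower, 11 higher and 15 lower, and 7 higher and 19 lower, and 5 higher and 1 lower for female VAT against spleen Tregs. The balance of higher and lower calls changed when single libraries were left out. Without male VAT Treg replicate 1, the counts were 0 higher and 4 lower against female VAT Tregs, 3 higher and 11 lower against spleen Tregs, and 2 higher and 12 lower against VAT CD4 cells. Without male VAT Treg replicate 2 they were 7 higher and 1 lower, 19 higher and 7 lower, and 16 higher and 12 lower in the same comparisons. Against VAT CD4 cells there were 1 higher and 13 lower without VAT CD4 replicate 1, and 10 higher and 5 lower without VAT CD4 replicate 2. Against spleen Tregs, male VAT Tregs had 8 higher and 6 lower without spleen Treg replicate 1, and 9 higher and 6 lower without spleen Treg replicate 2. Against female VAT Tregs, they had 1 higher and 1 lower without female VAT Treg replicate 1, and 1 higher and 0 lower without replicate 2.

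**Figure D1:**
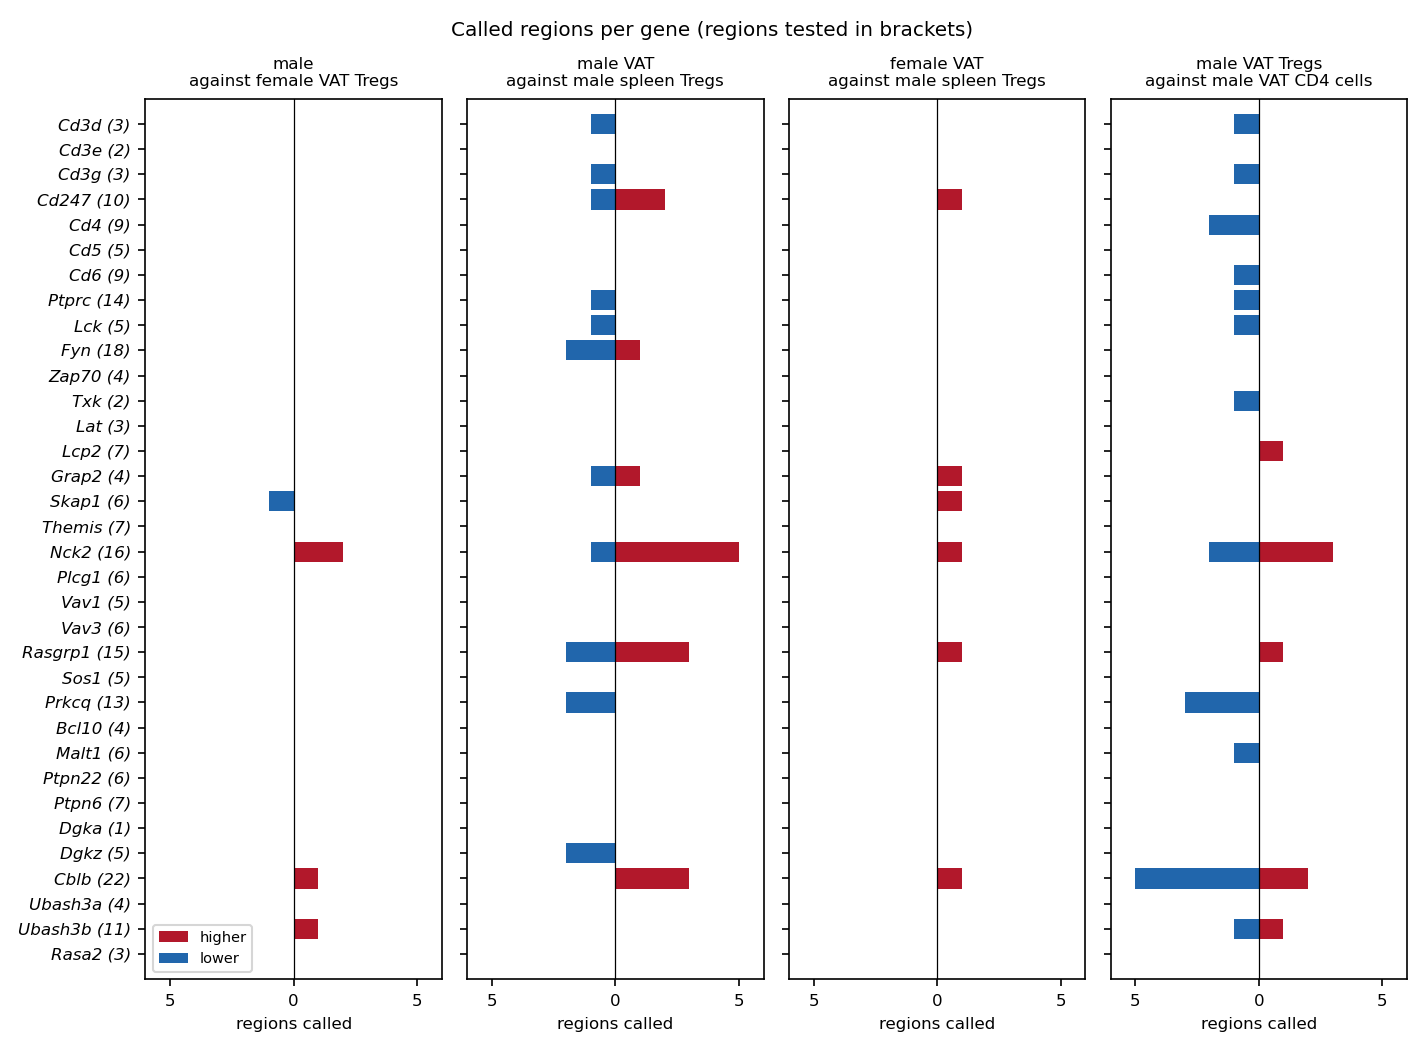
Number of regions called higher (red, to the right) and lower (blue, to the left) at each signalling gene in each of the 4 comparisons, with the number of regions tested in brackets. Cblb, Nck2, Rasgrp1 and Prkcq have the most calls and also many regions tested (22, 16, 15 and 13), and 15 genes have none.

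**Figure D2:**
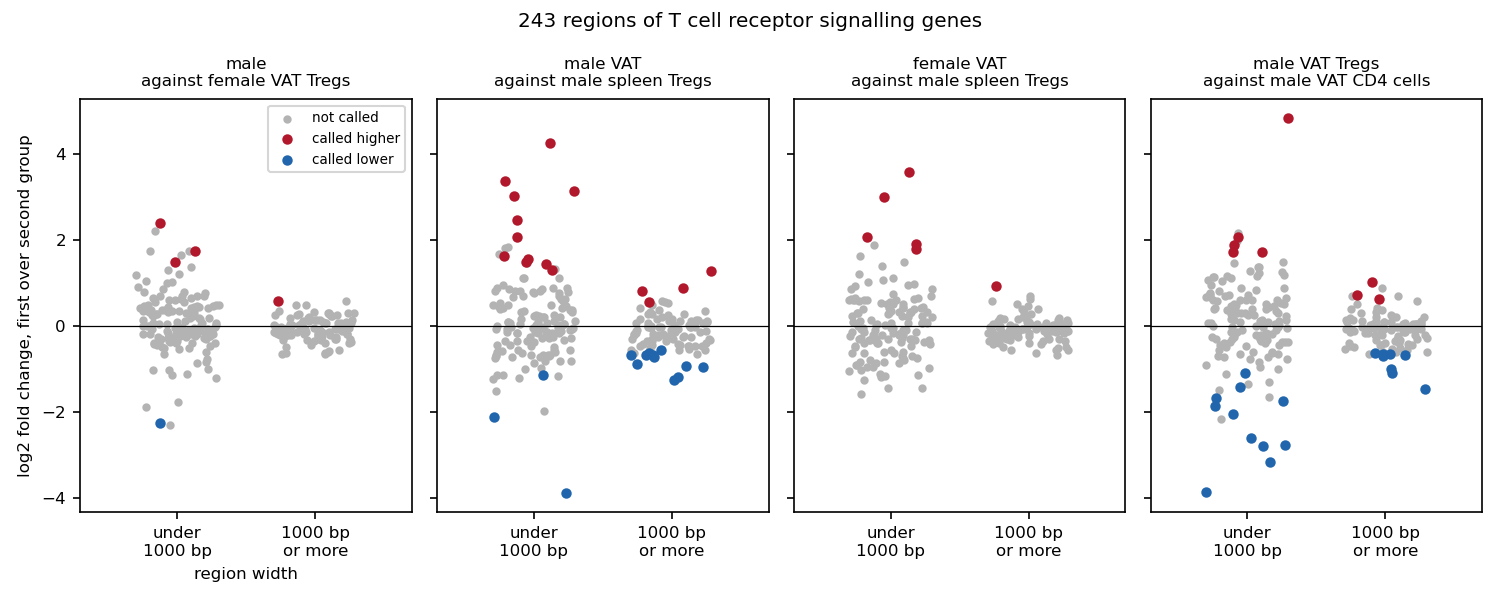
Log2 fold change of each of the 243 regions (points, male VAT Tregs over female VAT Tregs, spleen Tregs or VAT CD4 cells, and female VAT Tregs over spleen Tregs) for regions under 1000 bp and of 1000 bp or more, with called regions in red (higher) and blue (lower) and all others in grey. Called regions stand on both sides of 0 between male VAT and spleen Tregs and only above 0 between female VAT and spleen Tregs.

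In all there were 67 calls at 49 regions of 19 genes. The share of all regions or genes called in any comparison was not computed, so the 49 and the 19 have no background. These genes also have more regions each, a median of 6 against 2 over all genes. At all 67 calls the libraries of the compared groups did not overlap, so a lack of overlap adds nothing to a call. The genes are taken in the order of their place in the pathway, with the calls that were lost when a library was left out. The 10 other settings change the scaling, the filter, the model or the tool, and their number is given for each call that 4 or more of them lost. There were 10 calls that kept an adjusted p under 0.05 in every fit that left out a library and under all 10 settings. They stood at Cblb (4), Rasgrp1, Lck, Fyn, Prkcq, Nck2 and Cd6.

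At the receptor, the region over the starts of Cd3d and Cd3g was less accessible in male VAT Tregs than in either other male group. These genes, which lie head to head, encode the delta and gamma chains of CD3. The region, chr9:44978354-44982537, held 12.3 and 10.7 CPM in male VAT Tregs, against 15.8 and 14.9 in female VAT Tregs, 16.7 and 21.4 in spleen Tregs, and 12.7 and 24.4 in VAT CD4 cells. Both male VAT Treg libraries were the lowest of all 8, and VAT CD4 replicate 1 was close above them. The differences were called against spleen Tregs (log2 fold change -0.74 ± 0.21, adjusted p = 0.0136) and against VAT CD4 cells (log2 fold change -0.71 ± 0.22, adjusted p = 0.0259). The spleen call was lost on omitting male VAT Treg replicate 2 (adjusted p = 0.0757) and spleen Treg replicate 2 (adjusted p = 0.331), and the CD4 call on omitting male VAT Treg replicate 1 (adjusted p = 0.0565), male VAT Treg replicate 2 (adjusted p = 0.0970) and VAT CD4 replicate 2 (adjusted p = 0.886) and under 7 of 10 other settings.

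Cd247 encodes the zeta chain, which carries most of the receptor's signalling motifs, and its gene body was more accessible at a pair of regions and less at another in male VAT Tregs than in spleen Tregs. The short region at chr1:165837628-165837858 held 4.75 and 2.35 CPM in male VAT Tregs, against 3.79 and 5.16 in female VAT Tregs, 0.9699 and 1.31 in spleen Tregs, and 6.55 and 7.21 in VAT CD4 cells. Every VAT library lay above both spleen libraries, the CD4 libraries highest. Against spleen it was called in males (log2 fold change 1.62 ± 0.42, adjusted p = 0.00409) and in females (log2 fold change 1.91 ± 0.42, adjusted p = 0.00149). The male call was lost on omitting male VAT Treg replicate 1 (adjusted p = 0.295) and spleen Treg replicate 1 (adjusted p = 0.0589), and the female call on omitting female VAT Treg replicate 2 (adjusted p = 0.123). Next to it, the broad region at chr1:165841010-165848225, the most accessible of the gene, held 52.9 and 35.7 CPM in male VAT Tregs, against 33.4 and 39.4 in female VAT Tregs, 22.2 and 28.4 in spleen Tregs, and 41.02 and 46.01 in VAT CD4 cells. It was called between male VAT and spleen Tregs (log2 fold change 0.81 ± 0.18, adjusted p = 7.76e-04). That call was lost on omitting male VAT Treg replicate 1 (adjusted p = 0.1401) and spleen Treg replicate 1 (adjusted p = 0.123). In the other direction, the region at chr1:165812857-165812936 held 0.7603 and 0.213 CPM in male VAT Tregs, against 2.304 and 2.39 in spleen Tregs (log2 fold change -2.12 ± 0.66, adjusted p = 0.0284). This difference was lost on omitting male VAT Treg replicate 2 (adjusted p = 0.262), spleen Treg replicate 1 (adjusted p = 0.0669) and spleen Treg replicate 2 (adjusted p = 0.127).

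The coreceptor Cd4, its fellow surface receptor Cd6 and the phosphatase Ptprc (CD45), which removes the inhibitory phosphate of Lck, had called regions that were all lower in male VAT Tregs. The short region outside Cd6 at chr19:10787490-10787683 held 2.28 and 1.71 CPM in male VAT Tregs, against 2.69 and 2.23 in female VAT Tregs, 3.88 and 2.45 in spleen Tregs, and 6.55 and 7.21 in VAT CD4 cells. The CD4 libraries stood clear of all 6 Treg libraries. It was lower in male VAT Tregs than in VAT CD4 cells (log2 fold change -1.76 ± 0.40, adjusted p = 6.30e-04). The call was lost in no fit that left out 1 library. At Ptprc the short region chr1:138188282-138188409, 12.5 kb outside the gene, held 0.507 and 0.533 CPM in male VAT Tregs, against 0.698 and 0.469 in female VAT Tregs, 0.485 and 0.418 in spleen Tregs, and 5.78 and 3.75 in VAT CD4 cells. All 6 Treg libraries were far below both CD4 libraries, and the call against VAT CD4 cells (log2 fold change -3.16 ± 0.68, adjusted p = 2.63e-04) was lost on omitting VAT CD4 replicate 1 (adjusted p = 0.0719). A neighbouring Ptprc region, chr1:138190297-138193496, held 10.9 and 12.3 CPM in male VAT Tregs, against 21.1 and 16.2 in spleen Tregs (log2 fold change -0.68 ± 0.21, adjusted p = 0.0279). This call was lost on omitting male VAT Treg replicate 1 (adjusted p = 0.1698) and spleen Treg replicate 1 (adjusted p = 0.393). At Cd4 the region of largest difference, chr6:124900565-124900642, is also assigned to Lag3 and held 0.3801 and 0.213 CPM in male VAT Tregs, against 0.499 and 0.821 in female VAT Tregs, 0.485 and 0.179 in spleen Tregs, and 1.35 and 3.03 in VAT CD4 cells. Female VAT and spleen Tregs were as low there as male VAT Tregs or close to them. The call against VAT CD4 cells (log2 fold change -2.80 ± 0.84, adjusted p = 0.0179) was lost in each of the 4 fits that left out 1 library of the 2 groups (adjusted p 0.0649 to 0.477). Inside Cd4, the region at chr6:124883527-124887056 held 15.5 and 14.9 CPM in male VAT Tregs, against 20.4 and 26.8 in VAT CD4 cells (log2 fold change -0.64 ± 0.21, adjusted p = 0.0350). That call was lost on omitting male VAT Treg replicate 1 (adjusted p = 0.1099), male VAT Treg replicate 2 (adjusted p = 0.0711) and VAT CD4 replicate 2 (adjusted p = 0.455) and under 6 of 10 other settings.

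Among the kinases, the proximal start of Lck was less accessible in male VAT Tregs than in spleen Tregs and VAT CD4 cells, while its distal start did not pass the test. Lck is known to be transcribed from a pair of promoters, of which the proximal one is used mostly in thymocytes and the distal one in mature T cells. The proximal region, chr4:129556678-129560401, whose sequence is given above, held 6.65 and 6.18 CPM in male VAT Tregs, against 10.7 and 9.27 in female VAT Tregs, 14.8 and 14.7 in spleen Tregs, and 12.3 and 15.3 in VAT CD4 cells. The groups did not overlap between male VAT Tregs and any other group, and female VAT Tregs lay between male VAT and spleen Tregs. Female VAT Tregs were not called against either male VAT or spleen Tregs there. In male VAT Tregs the region was called against spleen Tregs (log2 fold change -1.19 ± 0.23, adjusted p = 4.66e-05). It was also called against VAT CD4 cells (log2 fold change -1.11 ± 0.25, adjusted p = 4.69e-04). The spleen call was lost in no fit that left out 1 library, and the CD4 call on omitting VAT CD4 replicate 2 (adjusted p = 0.05496). The distal region, chr4:129569747-129577720, held 54.9 and 38.3 CPM in male VAT Tregs, against 47.9 and 46.8 in female VAT Tregs, 40.9 and 45.7 in spleen Tregs, and 43.7 and 48.2 in VAT CD4 cells. The male VAT Treg libraries enclosed all others there, and the log2 fold changes were 0.11 ± 0.18 (adjusted p = 0.809) against spleen Tregs and 0.03 ± 0.18 (adjusted p = 0.971) against VAT CD4 cells. The proximal region is assigned to Hdac1 as well as Lck.

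Fyn, the Src family kinase that acts beside Lck, had 1 region higher and 2 lower in male VAT than in spleen Tregs, all inside the gene. The region with the largest difference, chr10:39468379-39472448, lies 100.6 kb from a start and held 8.68 and 9.704 CPM in male VAT Tregs, against 10.7 and 11.6 in female VAT Tregs, 17.7 and 17.9 in spleen Tregs, and 13.1 and 15.7 in VAT CD4 cells. Male VAT Tregs were lowest, female VAT Tregs next and spleen Tregs highest, with no overlap between them. At this region female VAT Tregs were not called against either. Its call between male VAT and spleen Tregs (log2 fold change -0.96 ± 0.22, adjusted p = 8.03e-04) was lost in no fit that left out 1 library. The other lower region, chr10:39433139-39437106, held 14.0 and 11.1 CPM in male VAT Tregs, against 20.9 and 19.9 in spleen Tregs (log2 fold change -0.68 ± 0.21, adjusted p = 0.0241). The higher one, chr10:39375716-39377979, held 16.9 and 13.1 CPM in male VAT Tregs, against 7.52 and 8.84 in spleen Tregs (log2 fold change 0.87 ± 0.23, adjusted p = 0.00446). These calls were lost on omitting male VAT Treg replicate 2 (adjusted p = 0.168), spleen Treg replicate 1 (adjusted p = 0.164) and spleen Treg replicate 2 (adjusted p = 0.121) for the lower region, and on omitting male VAT Treg replicate 1 (adjusted p = 0.1395) and spleen Treg replicate 1 (adjusted p = 0.112) for the higher. Txk, a Tec family kinase, had a short region 8.4 kb outside it, in the neighbouring kinase gene Tec, at chr5:72761345-72761456. This region held 0.7603 and 0.3199 CPM in male VAT Tregs, against 0.598 and 1.41 in female VAT Tregs, 0.727 and 0.836 in spleen Tregs, and 3.66 and 4.33 in VAT CD4 cells. The CD4 libraries were again clear of all 6 Treg libraries (log2 fold change -2.78 ± 0.65, adjusted p = 0.00103 in male VAT Tregs against VAT CD4 cells). The call was lost on omitting VAT CD4 replicate 2 (adjusted p = 0.0693).

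**Figure D3:**
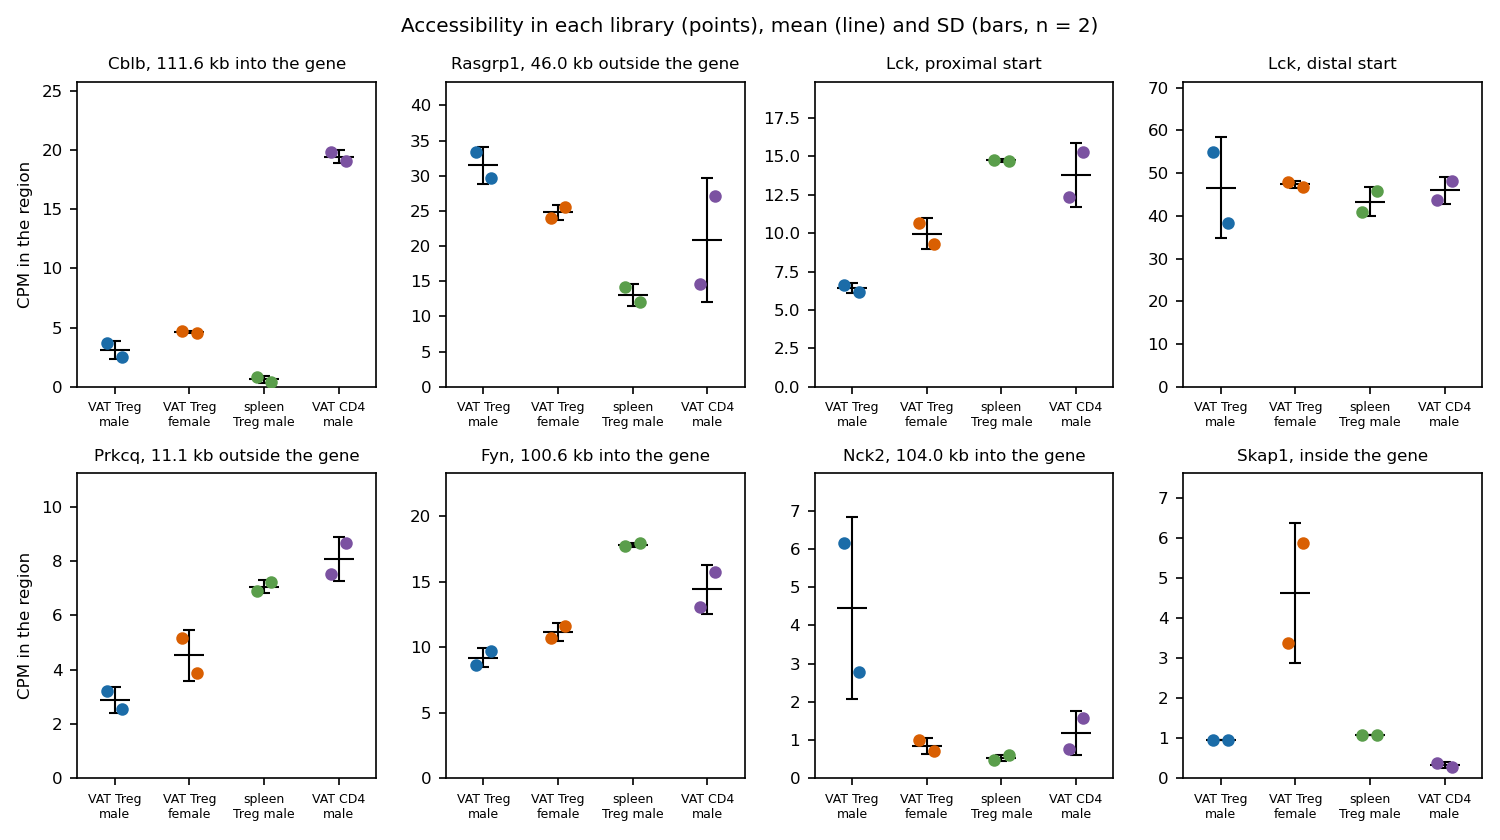
CPM in each of the 8 libraries (points) at 8 regions, with the mean (line) and SD (bars, n = 2), for male VAT Tregs, female VAT Tregs, spleen Tregs and VAT CD4 cells. At the Cblb region the CD4 libraries reach 19.8 CPM and the spleen Treg libraries stay under 0.9 CPM, and at the proximal Lck start both male VAT Treg libraries lie under all others.

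Among the adaptors, Nck2 had the most regions tested, 16 of 43, and also the most calls, at 8 regions. The share of all regions called in any of the 4 comparisons was not computed, so this count has no background. Nck2 links phosphorylated receptors to the actin cytoskeleton. The region deepest in the gene, chr1:43549602-43549853, held 6.15 and 2.77 CPM in male VAT Tregs, against 0.997 and 0.704 in female VAT Tregs, 0.485 and 0.597 in spleen Tregs, and 0.7703 and 1.59 in VAT CD4 cells. Both male VAT Treg libraries were above all others, replicate 1 well above replicate 2. It was called higher in male VAT Tregs than in female VAT Tregs (log2 fold change 2.39 ± 0.53, adjusted p = 0.001196), spleen Tregs (log2 fold change 3.01 ± 0.55, adjusted p = 7.74e-06) and VAT CD4 cells (log2 fold change 1.89 ± 0.55, adjusted p = 0.0121). The call against female VAT Tregs was lost on omitting male VAT Treg replicate 1 (adjusted p = 0.342) and female VAT Treg replicate 2 (adjusted p = 0.102), that against spleen Tregs on omitting male VAT Treg replicate 1 (adjusted p = 0.105), and that against VAT CD4 cells on omitting male VAT Treg replicate 1 (adjusted p = 0.575) and VAT CD4 replicate 1 (adjusted p = 0.219) and under 4 settings.

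A second Nck2 region, chr1:43521994-43522275, showed the same order, with 5.07 and 2.35 CPM in male VAT Tregs, against 1.097 and 1.17 in female VAT Tregs, 0.727 and 0.239 in spleen Tregs, and 0.385 and 1.298 in VAT CD4 cells. It was called against spleen Tregs (log2 fold change 3.13 ± 0.62, adjusted p = 4.45e-05) and VAT CD4 cells (log2 fold change 2.08 ± 0.61, adjusted p = 0.0145). Another, 32.2 kb outside the gene at chr1:43413014-43413247, held 4.94 and 3.52 CPM in male VAT Tregs, against 1.496 and 1.53 in female VAT Tregs, 0.727 and 2.15 in spleen Tregs, and 0.578 and 1.88 in VAT CD4 cells. It was called against female VAT Tregs (log2 fold change 1.49 ± 0.47, adjusted p = 0.0491), spleen Tregs (log2 fold change 1.45 ± 0.45, adjusted p = 0.0269) and VAT CD4 cells (log2 fold change 1.72 ± 0.52, adjusted p = 0.0181). The calls of the first of this pair were lost on omitting male VAT Treg replicate 1 (adjusted p = 0.1196) for spleen Tregs, and on omitting male VAT Treg replicate 1 (adjusted p = 0.519) and VAT CD4 replicate 1 (adjusted p = 0.286) and under 4 settings for VAT CD4 cells. At the region outside the gene, the call against female VAT Tregs was lost on omitting male VAT Treg replicate 1 (adjusted p = 0.351), female VAT Treg replicate 1 (adjusted p = 0.373) and female VAT Treg replicate 2 (adjusted p = 0.344) and under 7 settings. Its spleen call was lost on omitting male VAT Treg replicate 1 (adjusted p = 0.275) and spleen Treg replicate 1 (adjusted p = 0.369) and under 5 settings, and its CD4 call on omitting male VAT Treg replicate 1 (adjusted p = 0.258) and VAT CD4 replicate 1 (adjusted p = 0.358) and under 4 settings. Male VAT Treg replicate 1 is also the library with the largest share of counts in short regions, and the part of that share in these calls was not tested.

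Near the Nck2 start, the region at chr1:43450818-43450957 was almost without reads in spleen Tregs. It held 2.41 and 1.17 CPM in male VAT Tregs, against 1.097 and 1.17 in female VAT Tregs, 0.242 and 0 in spleen Tregs, and 0.963 and 1.59 in VAT CD4 cells. Male VAT Tregs had 49 counts there and spleen Tregs 2, a depth-scaled ratio of 24.3 with an exact 95% interval of 6.39 to 207 that covers counting error only. Female VAT Tregs had 21 counts, a ratio to spleen Tregs of 14.2 (3.46 to 124). The adjusted p was 5.55e-04 for the male comparison, lost on omitting male VAT Treg replicate 1 (adjusted p = 0.0878) and spleen Treg replicate 2 (adjusted p = 0.104). It was 0.0416 for the female comparison, lost on omitting female VAT Treg replicate 1 (adjusted p = 0.303), female VAT Treg replicate 2 (adjusted p = 0.277) and spleen Treg replicate 2 (adjusted p = 0.549) and under 6 of 10 other settings. Other Nck2 regions went the other way. The region at chr1:43403524-43403643, 41.8 kb outside the gene, held 0.444 and 0.107 CPM in male VAT Tregs, against 1.097 and 0.235 in female VAT Tregs, 0.485 and 0.478 in spleen Tregs, and 4.81 and 4.47 in VAT CD4 cells. It was open in VAT CD4 cells and low in all 6 Treg libraries (log2 fold change -3.87 ± 0.74, adjusted p = 2.26e-05 in male VAT Tregs against VAT CD4 cells). The call was lost in no fit that left out 1 library. The remaining called regions of Nck2 were chr1:43360340-43362675, lower in male VAT than in spleen Tregs (log2 fold change -0.93 ± 0.26), chr1:43471346-43471535, higher in the same comparison (1.55 ± 0.49), and chr1:43467816-43467913, lower in male VAT Tregs than in VAT CD4 cells (-1.67 ± 0.52). The first was lost on omitting male VAT Treg replicate 1 (adjusted p = 0.226) and spleen Treg replicate 1 (adjusted p = 0.138). The second was lost on omitting male VAT Treg replicate 1 (adjusted p = 0.338), spleen Treg replicate 1 (adjusted p = 0.163) and spleen Treg replicate 2 (adjusted p = 0.128) and under 6 settings. The last was lost on omitting male VAT Treg replicate 2 (adjusted p = 0.155), VAT CD4 replicate 1 (adjusted p = 0.09699) and VAT CD4 replicate 2 (adjusted p = 0.221).

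**Figure D4:**
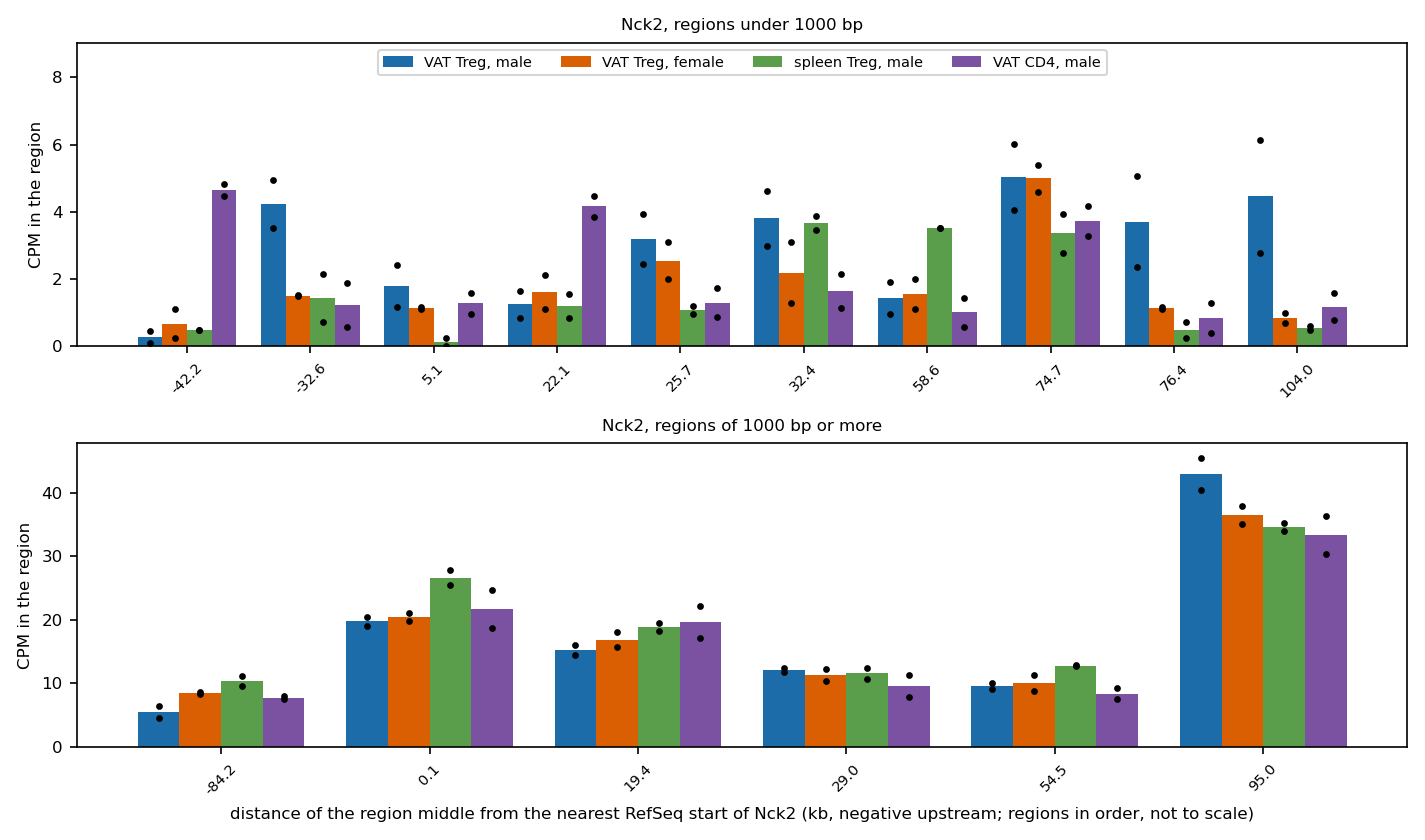
Mean CPM (bars) and CPM of each library (points) in the 4 groups at every Nck2 region, under 1000 bp above and of 1000 bp or more below. Regions stand in order of the distance of their middle from the nearest start (kb, negative upstream, not to scale). Male VAT Tregs lead at 104.0 kb and 76.4 kb into the gene, and VAT CD4 cells lead at -42.2 kb.

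Skap1, an adaptor that couples the receptor to integrin adhesion, was the one signalling gene with a lower region in male VAT Tregs when these were set against female VAT Tregs. The region, chr11:96595935-96596140, held 0.9504 and 0.9597 CPM in male VAT Tregs, against 3.39 and 5.87 in female VAT Tregs, 1.09 and 1.07 in spleen Tregs, and 0.385 and 0.288 in VAT CD4 cells. Both female libraries were above all the others, and the male VAT and spleen Treg libraries were close to each other. It was called in male against female VAT Tregs (log2 fold change -2.26 ± 0.54, adjusted p = 0.002897) and in female VAT against spleen Tregs (log2 fold change 2.08 ± 0.53, adjusted p = 0.0119). The first call was lost on omitting female VAT Treg replicate 2 (adjusted p = 0.428), and the second in each of the 4 fits that left out 1 library of the 2 groups (adjusted p 0.0713 to 0.693).

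Grap2 (Gads), the adaptor that joins Lcp2 to Lat, had a region inside it at chr15:80592824-80593047 with 3.801 and 1.92 CPM in male VAT Tregs, against 3.29 and 3.99 in female VAT Tregs, 0.727 and 1.25 in spleen Tregs, and 2.31 and 2.02 in VAT CD4 cells. The VAT Treg libraries of both sexes lay above both spleen libraries, in males (log2 fold change 1.48 ± 0.48, adjusted p = 0.0353) and in females (log2 fold change 1.78 ± 0.48, adjusted p = 0.0230). The male call was lost on omitting male VAT Treg replicate 1 (adjusted p = 0.471), spleen Treg replicate 1 (adjusted p = 0.256) and spleen Treg replicate 2 (adjusted p = 0.0787) and under 8 of 10 other settings. The female call was lost in each of the 4 fits that left out 1 library of the 2 groups (adjusted p 0.0807 to 0.3295) and under 4 settings. A second Grap2 region, chr15:80611597-80611772, was lower in male VAT Tregs, with 1.84 and 2.13 CPM in male VAT Tregs, against 4.24 and 4.48 in spleen Tregs (log2 fold change -1.15 ± 0.39, adjusted p = 0.0487). This call was lost in each of the 4 fits that left out 1 library of the 2 groups (adjusted p 0.0563 to 0.218) and under 6 settings. Outside Lcp2, the region at chr11:34034890-34038195 held 23.6 and 13.9 CPM in male VAT Tregs, against 10.4 and 12.4 in VAT CD4 cells (log2 fold change 0.73 ± 0.23, adjusted p = 0.0244). The call was lost on omitting male VAT Treg replicate 1 (adjusted p = 0.723), VAT CD4 replicate 1 (adjusted p = 0.253) and VAT CD4 replicate 2 (adjusted p = 0.06396) and under 6 of 10 other settings.

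Of the effectors, Rasgrp1 had the most regions tested, 15 of 60, and also the most calls. An upstream region of Rasgrp1 gave the smallest adjusted p of all signalling genes between male VAT and spleen Tregs. Rasgrp1 is the diacylglycerol-bound factor that loads Ras with GTP. The region, chr2:117388845-117392018, lies 46.0 kb outside the gene and held 33.4 and 29.6 CPM in male VAT Tregs, against 24.04 and 25.6 in female VAT Tregs, 14.2 and 12.0 in spleen Tregs, and 14.6 and 27.1 in VAT CD4 cells. Both male VAT Treg libraries were the highest, both female libraries came next among Tregs, and both spleen libraries were lowest, while the CD4 libraries spread over most of that range. Male and female VAT Tregs were not called apart there. The region was called in male VAT against spleen Tregs (log2 fold change 1.28 ± 0.20, adjusted p = 9.10e-08). That call was lost in no fit that left out 1 library. It was also called in female VAT against spleen Tregs (log2 fold change 0.93 ± 0.21, adjusted p = 0.00140), and there the call was lost on omitting female VAT Treg replicate 2 (adjusted p = 0.0758) and spleen Treg replicate 2 (adjusted p = 0.177).

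Further from Rasgrp1, the short region at chr2:117403569-117403648 held 0.127 and 0.107 CPM in male VAT Tregs, against 0.898 and 0.352 in female VAT Tregs, 2.55 and 1.43 in spleen Tregs, and 0.578 and 0.577 in VAT CD4 cells. Male VAT Tregs had 3 counts against 45 in spleen Tregs, a depth-scaled ratio of 0.0662 with an exact 95% interval of 0.0132 to 0.206. The adjusted p was 0.00151, and the call was lost on omitting male VAT Treg replicate 1 (adjusted p = 0.0719). Inside the gene, the broad region at chr2:117326897-117330634 held 17.9 and 17.3 CPM in male VAT Tregs, against 13.4 and 16.3 in female VAT Tregs, 14.3 and 14.6 in spleen Tregs, and 7.13 and 10.1 in VAT CD4 cells. Both CD4 libraries were under all 6 Treg libraries (log2 fold change 1.01 ± 0.24, adjusted p = 9.73e-04 in male VAT Tregs against VAT CD4 cells). The call was lost on omitting VAT CD4 replicate 1 (adjusted p = 0.0931). The other called regions of Rasgrp1 all came from male VAT against spleen Tregs. They were chr2:117322519-117322646 (log2 fold change 3.37 ± 0.81), chr2:117331727-117331904 (1.31 ± 0.42) and chr2:117416676-117421137 (-0.64 ± 0.20). The first was lost on omitting male VAT Treg replicate 1 (adjusted p = 0.114) and spleen Treg replicate 2 (adjusted p = 0.06104), and the second on omitting male VAT Treg replicate 1 (adjusted p = 0.133), male VAT Treg replicate 2 (adjusted p = 0.0505) and spleen Treg replicate 2 (adjusted p = 0.477) and under 6 settings. The last was lost in each of the 4 fits that left out 1 library of the 2 groups (adjusted p 0.0622 to 0.178) and under 5 settings.

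Prkcq, which encodes protein kinase C theta, had 4 called regions, and each was lower in male VAT Tregs. The region 11.1 kb outside it, chr2:11158969-11160770, held 3.23 and 2.56 CPM in male VAT Tregs, against 5.19 and 3.87 in female VAT Tregs, 6.91 and 7.22 in spleen Tregs, and 7.51 and 8.65 in VAT CD4 cells. Male VAT Tregs were lowest, female VAT Tregs next, and spleen Tregs and VAT CD4 cells highest, without overlap between male VAT Tregs and any other group. Female VAT Tregs were not called against either male VAT or spleen Tregs there. In male VAT Tregs the region was called against spleen Tregs (log2 fold change -1.27 ± 0.31, adjusted p = 0.00224). It was also called against VAT CD4 cells (log2 fold change -1.46 ± 0.32, adjusted p = 4.10e-04). The spleen call was lost on omitting spleen Treg replicate 2 (adjusted p = 0.0542), and the CD4 call in no fit that left out 1 library. Inside the gene, the short region at chr2:11181645-11181797 held 1.33 and 1.49 CPM in male VAT Tregs, against 1.596 and 2.11 in female VAT Tregs, 1.33 and 1.07 in spleen Tregs, and 5.01 and 5.19 in VAT CD4 cells. The CD4 libraries were above all 6 Treg libraries (log2 fold change -1.86 ± 0.49, adjusted p = 0.00474 in male VAT Tregs against VAT CD4 cells). This call was lost on omitting male VAT Treg replicate 1 (adjusted p = 0.0797) and VAT CD4 replicate 2 (adjusted p = 0.0755). The region at chr2:11185605-11189114 was lower in male VAT than in spleen Tregs (log2 fold change -0.88 ± 0.21, adjusted p = 0.00147), lost on omitting spleen Treg replicate 2 (adjusted p = 0.0922). The region at chr2:11202586-11206405 was lower in male VAT Tregs than in VAT CD4 cells (log2 fold change -0.64 ± 0.21, adjusted p = 0.0328), lost in each of the 4 fits that left out 1 library of the 2 groups (adjusted p 0.05999 to 0.172) and under 5 settings. Malt1, the protease of the complex that Prkcq activates, had 1 call, 14.3 kb outside the gene at chr18:65413243-65416656. It held 15.97 and 12.9 CPM in male VAT Tregs, against 21.96 and 23.7 in VAT CD4 cells (log2 fold change -0.65 ± 0.21, adjusted p = 0.0360). That call was lost on omitting male VAT Treg replicate 2 (adjusted p = 0.169), VAT CD4 replicate 1 (adjusted p = 0.0966) and VAT CD4 replicate 2 (adjusted p = 0.214) and under 5 of 10 other settings.

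Among the negative regulators, Cblb had the most regions tested, 22 of 59, and had called regions in all 4 comparisons. The share of all genes with a call in every comparison was not computed, so this has no background. Cblb is a ubiquitin ligase that raises the threshold for T cell activation. A region 111.6 kb into the gene, chr16:52142896-52143461, held 3.67 and 2.56 CPM in male VAT Tregs, against 4.69 and 4.58 in female VAT Tregs, 0.849 and 0.418 in spleen Tregs, and 19.8 and 19.04 in VAT CD4 cells. Spleen Tregs were lowest, then male VAT Tregs, then female VAT Tregs, and VAT CD4 cells were highest, and no group overlapped its neighbour. It was higher in male VAT (log2 fold change 2.46 ± 0.43, adjusted p = 2.75e-06) and female VAT Tregs (log2 fold change 2.995 ± 0.42, adjusted p = 5.33e-09) than in spleen Tregs, and lower in male VAT Tregs than in VAT CD4 cells (log2 fold change -2.60 ± 0.30, adjusted p = 2.93e-14). All 3 calls were kept in every fit that left out a library and under all 10 other settings. The order of male and female VAT Tregs there was not called (log2 fold change -0.54 ± 0.32, adjusted p = 0.487). The adjoining broad region, chr16:52145760-52149139, held 20.9 and 23.1 CPM in male VAT Tregs, against 25.1 and 25.7 in female VAT Tregs, 17.7 and 16.4 in spleen Tregs, and 35.8 and 51.3 in VAT CD4 cells. It too was lower in male VAT Tregs than in VAT CD4 cells (log2 fold change -0.996 ± 0.19, adjusted p = 3.26e-05). This call was lost on omitting VAT CD4 replicate 2 (adjusted p = 0.06496).

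Far upstream of Cblb, a short region at chr16:51646780-51646925 was open in male VAT Tregs and nearly without reads in VAT CD4 cells. It held 3.105 and 2.24 CPM in male VAT Tregs, against 1.097 and 0.587 in female VAT Tregs, 1.09 and 0.896 in spleen Tregs, and 0 and 0.144 in VAT CD4 cells. Male VAT Tregs had 70 counts and VAT CD4 cells 1, a depth-scaled ratio of 33.7 with an exact 95% interval of 5.86 to 1351. The adjusted p was 2.39e-04, and the call was lost in no fit that left out 1 library. This region lies 384.3 kb outside Cblb, and the table assigns it to no other gene. At chr16:51689145-51692806, 338.4 kb outside, a broad region held 49.5 and 44.1 CPM in male VAT Tregs, against 30.5 and 31.9 in female VAT Tregs, 34.4 and 29.9 in spleen Tregs, and 28.5 and 32.2 in VAT CD4 cells. Both male VAT Treg libraries were above all others, and it was called higher in male VAT Tregs than in female VAT Tregs (log2 fold change 0.59 ± 0.18, adjusted p = 0.0456), spleen Tregs (log2 fold change 0.55 ± 0.18, adjusted p = 0.04099) and VAT CD4 cells (log2 fold change 0.63 ± 0.19, adjusted p = 0.0180). The first of these calls was lost on omitting male VAT Treg replicate 1 (adjusted p = 0.151), female VAT Treg replicate 1 (adjusted p = 0.423) and female VAT Treg replicate 2 (adjusted p = 0.323). The second was lost on omitting male VAT Treg replicate 1 (adjusted p = 0.146), spleen Treg replicate 1 (adjusted p = 0.126) and spleen Treg replicate 2 (adjusted p = 0.3701), and the third on omitting male VAT Treg replicate 1 (adjusted p = 0.115), VAT CD4 replicate 1 (adjusted p = 0.228) and VAT CD4 replicate 2 (adjusted p = 0.0637). They were also lost under 7, 6 and 2 of 10 other settings, in the same order.

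The remaining Cblb calls were 1 higher in male VAT than in spleen Tregs and 3 lower in male VAT Tregs than in VAT CD4 cells. The first, chr16:52074301-52074454, held 3.04 and 3.73 CPM in male VAT Tregs, against 0.364 and 1.07 in spleen Tregs (log2 fold change 2.06 ± 0.53, adjusted p = 0.00419) and was lost on omitting spleen Treg replicate 1 (adjusted p = 0.102). The 3 lower ones were chr16:51705062-51705328 (log2 fold change -1.11 ± 0.32), chr16:52086847-52086944 (-2.06 ± 0.64) and chr16:52093626-52096357 (-0.69 ± 0.22). The first was lost on omitting male VAT Treg replicate 1 (adjusted p = 0.0849), VAT CD4 replicate 1 (adjusted p = 0.05198) and VAT CD4 replicate 2 (adjusted p = 0.142). The second was lost in each of the 4 fits that left out 1 library of the 2 groups (adjusted p 0.0598 to 0.366), and the last on omitting male VAT Treg replicate 1 (adjusted p = 0.0995), male VAT Treg replicate 2 (adjusted p = 0.0867) and VAT CD4 replicate 2 (adjusted p = 0.3798) and under 5 settings. The start region of Cblb, its most accessible, was not called in any comparison, with log2 fold changes between -0.03 and 0.31.

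**Figure D5:**
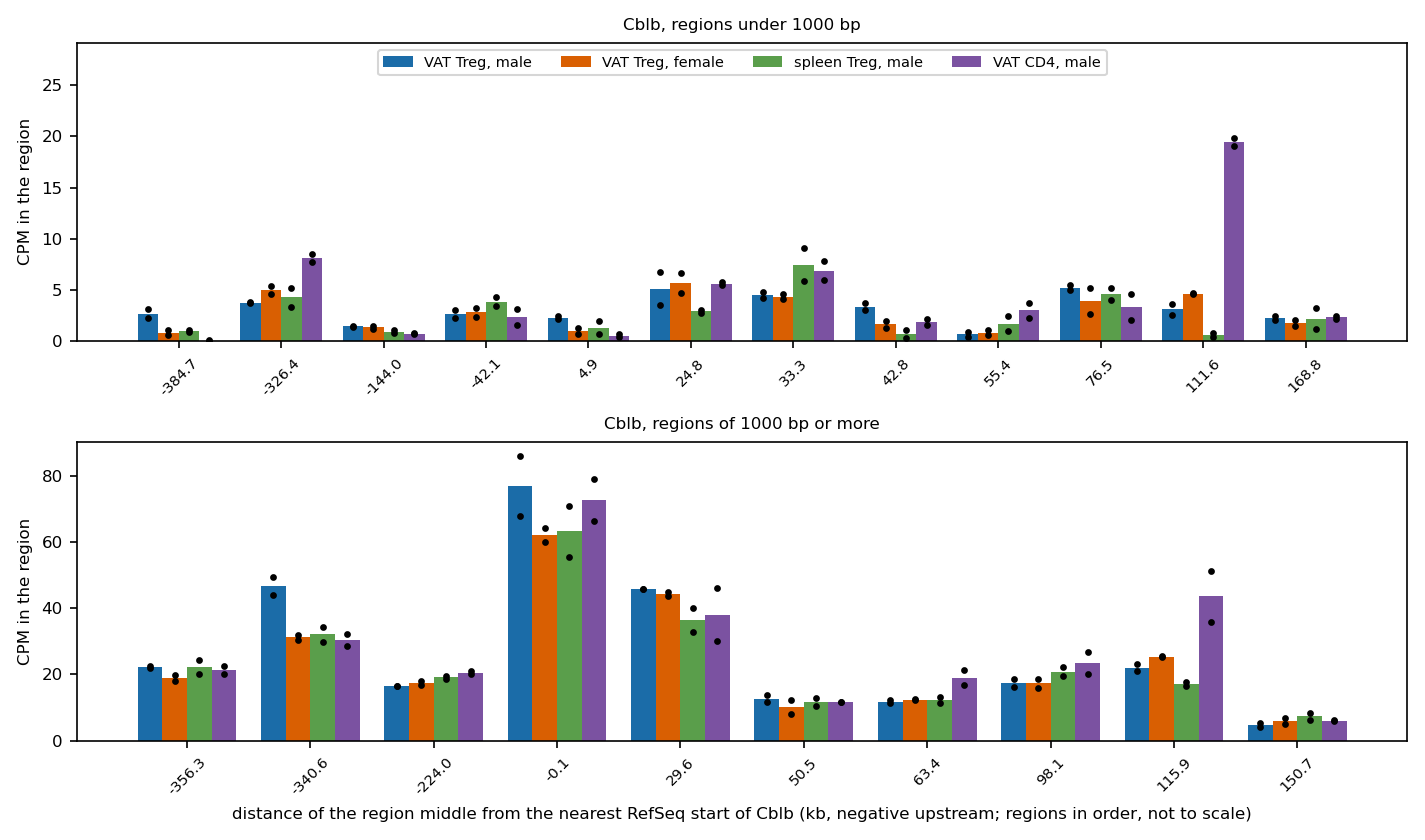
Mean CPM (bars) and CPM of each library (points) in the 4 groups at every Cblb region, under 1000 bp above and of 1000 bp or more below. Regions stand in order of the distance of their middle from the nearest start (kb, negative upstream, not to scale). VAT CD4 cells stand above all Treg groups at 111.6 kb, and male VAT Tregs stand highest at -340.6 kb.

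Ubash3b (Sts-1), a phosphatase that acts on Zap70, had 1 region higher in male VAT Tregs than in female VAT Tregs. The region, chr9:41064334-41064557, held 6.08 and 2.88 CPM in male VAT Tregs, against 0.798 and 1.995 in female VAT Tregs, 2.79 and 2.45 in spleen Tregs, and 0.7703 and 1.88 in VAT CD4 cells. The male VAT Treg libraries were the highest, but replicate 2 was close to both spleen Treg libraries. It was called against female VAT Tregs (log2 fold change 1.74 ± 0.46, adjusted p = 0.00977) and VAT CD4 cells (log2 fold change 1.73 ± 0.49, adjusted p = 0.0104). The first call was lost on omitting male VAT Treg replicate 1 (adjusted p = 0.429) and female VAT Treg replicate 1 (adjusted p = 0.476), and the second on omitting male VAT Treg replicate 1 (adjusted p = 0.464) and VAT CD4 replicate 1 (adjusted p = 0.245). A second region of the gene, chr9:41080990-41081240, held 4.37 and 2.56 CPM in male VAT Tregs, against 8.28 and 10.7 in VAT CD4 cells (log2 fold change -1.42 ± 0.33, adjusted p = 9.53e-04). That call was lost on omitting VAT CD4 replicate 2 (adjusted p = 0.0787).

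Dgkz encodes diacylglycerol kinase zeta, which removes the diacylglycerol that Rasgrp1 and Prkcq bind, and both of its called regions were lower in male VAT than in spleen Tregs. The region over the start whose sequence is given above, chr2:91957006-91966993, held 44.2 and 40.2 CPM in male VAT Tregs, against 41.9 and 55.4 in female VAT Tregs, 63.6 and 60.3 in spleen Tregs, and 36.01 and 51.6 in VAT CD4 cells. The spleen Treg libraries were the highest, and those of the other groups overlapped (log2 fold change -0.55 ± 0.18, adjusted p = 0.0328 in male VAT against spleen Tregs). This call was lost on omitting male VAT Treg replicate 2 (adjusted p = 0.0877), spleen Treg replicate 1 (adjusted p = 0.243) and spleen Treg replicate 2 (adjusted p = 0.141) and under 6 of 10 other settings. The other region, chr2:91982503-91986812, lies in the neighbouring gene Creb3l1 and held 12.2 and 11.5 CPM in male VAT Tregs, against 20.2 and 18.03 in spleen Tregs (log2 fold change -0.68 ± 0.21, adjusted p = 0.0254). This call was lost in each of the 4 fits that left out 1 library of the 2 groups (adjusted p 0.0761 to 0.227).

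The other 15 genes had no called region: Cd3e and Cd5 at the receptor, the kinase Zap70, the adaptors Lat and Themis, the effectors Plcg1, Vav1, Vav3, Sos1 and Bcl10, and the negative regulators Ptpn22, Ptpn6 (SHP-1), Dgka, Ubash3a and Rasa2. Their 68 regions gave 272 tests, of which 36 (13.2%) had an unadjusted p under 0.05 in edgeR, against 14.8% of the tests over all regions. After adjustment DESeq2 called 0 of them and limma-voom 2. Over their regions of 1000 bp or more, log2 fold changes in the 4 comparisons lay between -0.62 and 0.87. Over regions of any width they lay between -1.52 at Ptpn6 and 1.88 at Cd3e. The smallest adjusted p of a gene ran from 0.0569 at Sos1 to 0.510 at Bcl10. It was also close to the threshold at Cd3e (0.0578), Cd5 (0.0689), Vav3 (0.0710), Ptpn6 (0.0727), Ubash3a (0.073) and Lat (0.0836). Having no call is thus not the same as being unchanged. Zap70, which docks on the phosphorylated CD3 chains, had a smallest adjusted p of 0.305 over its 16 tests. Its most accessible region, chr1:36762327-36771728, held 29.1 and 23.9 CPM in male VAT Tregs, against 26.03 and 33.1 in female VAT Tregs, 31.2 and 32.9 in spleen Tregs, and 21.2 and 27.7 in VAT CD4 cells. There the male VAT Treg libraries overlapped those of female VAT Tregs and VAT CD4 cells and lay below those of spleen Tregs. Bcl10 had a smallest adjusted p of 0.510. Its start region, chr3:145921210-145927147, held 129 and 110.0 CPM in male VAT Tregs, against 96.7 and 102 in female VAT Tregs, 100.1 and 106 in spleen Tregs, and 115 and 101 in VAT CD4 cells, and male VAT Treg replicate 1 was the highest of these. For Dgka, the partner of Dgkz, the single region chr10:128744829-128750809 held 30.5 and 22.3 CPM in male VAT Tregs, against 33.7 and 36.97 in female VAT Tregs, 33.9 and 33.5 in spleen Tregs, and 30.4 and 39.4 in VAT CD4 cells. Male VAT Treg replicate 2 was the lowest library there, and the difference was not called (log2 fold change -0.34 ± 0.19, adjusted p = 0.308 against spleen Tregs).

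The most accessible region of each gene was taken as the one with the highest mean CPM. It was called at 2 genes between male VAT and spleen Tregs, Cd247 and Dgkz, and at 1, Cd4, between male VAT Tregs and VAT CD4 cells. Over all regions, 6.73% and 7.69% were called in these comparisons (4.21% and 4.17% of those of 1000 bp or more). Counts this small do not set the most accessible regions of the 34 genes apart from those shares. Between male and female VAT Tregs these 34 log2 fold changes lay between -0.41 and 0.31, between male VAT and spleen Tregs between -0.55 and 0.81, between female VAT and spleen Tregs between -0.42 and 0.51, and between male VAT Tregs and VAT CD4 cells between -0.64 and 0.72. Compared per kb over regions of 1000 bp or more, the Bcl10 start was the most accessible in each group, averaging 20.1 ± 2.20 CPM per kb in male VAT Tregs, against 16.7 ± 0.579 in female VAT Tregs, 17.4 ± 0.710 in spleen Tregs and 18.2 ± 1.73 in VAT CD4 cells (SD, n = 2 each). Among the most accessible regions of the genes, those of Zap70 and Cd6 had the lowest levels per kb in male VAT Tregs. Zap70 averaged 2.82 ± 0.391 CPM per kb in male VAT Tregs, against 3.14 ± 0.531 in female VAT Tregs, 3.41 ± 0.131 in spleen Tregs and 2.60 ± 0.490 in VAT CD4 cells. That Zap70 region is broad, and a short start region beside it, chr1:36761602-36761928, averaged 38.6 CPM per kb over all libraries. Cd6 averaged 2.62 ± 0.6196 CPM per kb in male VAT Tregs, against 3.38 ± 0.247 in female VAT Tregs, 3.65 ± 0.390 in spleen Tregs and 3.77 ± 0.589 in VAT CD4 cells.

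Of 60 further genes of the pathway that are not among the 34, 57 had a region tested, 278 regions in all. Male VAT Tregs had 6 of these higher and 4 lower than female VAT Tregs (3.60%, close to the 3.26% of all regions), 26 higher and 14 lower than spleen Tregs (14.4%, against 6.73% of all), and 19 higher and 18 lower than VAT CD4 cells (13.3%, against 7.69% of all). Female VAT Tregs had 6 higher and 1 lower than spleen Tregs (2.52%, against 1.38% of all). Itpr2, an inositol trisphosphate receptor that releases stored calcium, had the smallest adjusted p among them between male VAT and spleen Tregs. Its region at chr6:146271183-146271822 averaged 15.3 ± 7.59 CPM in male VAT Tregs, against 4.70 ± 0.834 in female VAT Tregs and 2.35 ± 0.110 in spleen Tregs (SD, n = 2 each), with male replicate 1 at 20.7 and replicate 2 at 9.92 CPM. VAT CD4 cells held 10.6 and 9.66 CPM there, near male VAT Treg replicate 2, and the region was not called against them. The log2 fold change was 1.72 ± 0.27 against female VAT Tregs (adjusted p = 1.34e-07) and 2.73 ± 0.28 against spleen Tregs (adjusted p = 9.84e-17).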

How the data were processed

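The authors deposited raw counts per region for the 8 libraries, with no normalisation, and per-library log2 CPM values. The build is mm10 (GRCm38), and Subread 1.6.2, HOMER 4.9, featureCounts and limma are named, per the submitters' processing notes, without the role of each. How regions were called is not given in the sources used here, nor whether starts count from 0 or 1. The 62205 entries hold 46624 distinct regions, counted once each. Those on chromosomes 1 to 19, X and Y were filtered with filterByExpr and scaled by TMM. A quasi-likelihood model with 1 mean per group was fitted to all 8 libraries in edgeR 4.0.16 under R 4.3.3, and p-values were adjusted by Benjamini-Hochberg over the 45709 regions kept. The fit was tested on simulated data. The standard error is approximate, from the F statistic. Where a group had 1 to 3 counts, the ratio has an exact 95% interval, for counting error only.

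The 34 genes, the other gene lists and the marker lists (Treg, T cell, CD8 and NK cell, B cell, myeloid, adipocyte, stromal and endothelial) were chosen with earlier results of these data known. By the naming rule, each gene is described in each comparison by its called region of largest log2 fold change, and further called regions follow. A gene without a call is described by its region of highest mean CPM, for a few, and otherwise in ranges. Itpr2 and the genes under other observations were chosen after their values were seen. Distances and starts come from RefSeq, and motif positions from its promoter sequences (GRCm38.p6). Alternatives were DESeq2 1.42.0 size factors, TMM on regions under 1000 bp, library size alone, no filter, a replicate block, a fit on the compared groups, the DESeq2 Wald test, limma-voom (limma 3.58.1), limma on the deposited log2 values, and each library left out. Separate scaling of short and larger regions and a crossed block were added after the data were seen. Some items of the wider pathway are not reported here.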

Additional observations from a re-analysis of the deposited data

How the results depend on the processing

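Over the 67 calls, direction was kept in every alternative run. DESeq2 size factors and no low-count filter lost 1 call each, limma-voom lost 11, a fit on the compared groups 14, separate scaling of short and larger regions 16, library size alone 17, TMM on regions under 1000 bp 19, limma on the deposited log2 values 20, and the DESeq2 Wald test 34. Counts of called regions that moved by over 1.5 times were as follows, against 4 higher and 1 lower in male against female VAT Tregs, 15 and 14 in male VAT against spleen Tregs, 6 and 0 in female VAT against spleen Tregs, and 8 and 19 in male VAT Tregs against VAT CD4 cells. TMM on regions under 1000 bp gave 1 higher and 2 lower for the first comparison, 9 higher for the second, 3 higher for the third, and 1 higher and 31 lower for the last. Library size alone gave 2 higher for the first. Separate scaling of short and larger regions, chosen after seeing the data, gave 2 higher and 2 lower for the first and 1 lower for the third. The fit on the compared groups gave 10 higher and 2 lower for the third. The DESeq2 Wald test gave 1 higher for the first, 5 lower for the second, 3 higher for the third, and 3 higher and 10 lower for the last. limma-voom gave 3 higher for the last, and limma on the deposited log2 values gave 0 higher and 0 lower for the first. Leaving out 1 library gave 0 to 7 higher and 0 to 4 lower for the first, 3 to 19 higher and 6 to 11 lower for the second, 1 to 4 higher and 0 lower for the third, and 1 to 16 higher and 5 to 13 lower for the last. The balance of higher and lower calls turned in the last comparison without VAT CD4 replicate 2 (10 higher, 5 lower) and without male VAT Treg replicate 2 (16 higher, 12 lower). Without male VAT Treg replicate 1 it turned in the first comparison (0 higher, 4 lower) and the second (3 higher, 11 lower). The cause of these changes was not tested.

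Same-numbered libraries of different groups did not deviate together (correlations of -0.15 to 0.07 over regions), so the numbers were not taken to pair them. The replicate block gave 2 higher and 1 lower for male against female VAT Tregs, 12 and 11 for male VAT against spleen Tregs, 6 and 0 for female VAT against spleen Tregs, and 7 and 14 for male VAT Tregs against VAT CD4 cells. Crossing the numbers of the CD4 libraries in the last comparison, also chosen after seeing the data, gave 8 higher and 19 lower.

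With 2 libraries per group, most calls at short regions rest on few counts, down to 1 to 3 in a group.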

Other observations

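Among the further genes of the pathway, some moved at several regions. Vav2, a relative of the exchange factor Vav1, had 4 regions higher in male VAT Tregs than in VAT CD4 cells. The most strongly called, chr2:27416633-27416828, averaged 4.14 ± 1.94 CPM in male VAT Tregs and 0.602 ± 0.239 CPM in VAT CD4 cells (SD, n = 2 each, log2 fold change 2.84 ± 0.61, edgeR adjusted p = 2.70e-04). Sla, which encodes the adaptor SLAP that lowers receptor levels, had a region at chr15:66803861-66804228 that was higher than in spleen Tregs in male (1.73 ± 0.29, edgeR adjusted p = 4.23e-07) and female VAT Tregs (1.23 ± 0.30, edgeR adjusted p = 0.00595). Its other regions called between male VAT and spleen Tregs went both ways. The region at chr15:66807345-66807514 was higher in male VAT Tregs (2.12 ± 0.58, edgeR adjusted p = 0.00762). Those at chr15:66824159-66826968 (-0.94 ± 0.25, edgeR adjusted p = 0.00494) and chr15:66849924-66850003 (-1.77 ± 0.51, edgeR adjusted p = 0.0145) were lower. Rasa3, a Ras-inactivating protein, had a region at chr8:13684753-13688470 that was higher in female VAT than in spleen Tregs (0.74 ± 0.20, edgeR adjusted p = 0.0305) and lower in male VAT Tregs than in VAT CD4 cells (-1.01 ± 0.20, edgeR adjusted p = 4.86e-05). Stim1, the calcium sensor of the endoplasmic reticulum, had 2 regions lower in male VAT Tregs than in VAT CD4 cells, with log2 fold changes of -1.73 ± 0.35 and -1.08 ± 0.31 (edgeR adjusted p = 9.39e-05 and 0.0116). These calls were not followed through the fits that left out a library.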
